A study of Drosophila melanogaster with 24 samples.

Results

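Fly ovaries held at 29 °C for 24 h were compared with ovaries held there for 12 h, which covers the later stretch of warmth after a shift from 18 °C. The comparison rests on 8 of the 24 libraries of the series: 4 ovary libraries at 24 h and 4 at 12 h, each set made of 2 tra2ts and 2 w1118 libraries, with genotype as a covariate. tra2ts females are XX and carry the temperature-sensitive alleles tra2ts1 and tra2ts2 over each other in a w1118 background; w1118 females are the control. Both genotypes were raised at 18 °C, aged for 5 days after eclosion and moved to the warm incubator, so the warm shift is common to every library compared here. In tra2ts ovaries it also takes away Transformer 2, and in w1118 ovaries it does not. Late egg chambers (stage 10 and older) were discarded at dissection per the labels, replicates came from independent dissections, and each library was built from 200 ng of total RNA. The 4 ovary libraries at 0 h are given only as levels, since they are no part of the comparison.

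The ovary is a row of egg chambers of rising age, each with germline nurse cells and an oocyte inside a layer of somatic follicle cells. Follicle cells make yolk proteins and then, in strict order as the chamber ages, the vitelline membrane and the chorion, so the level of each eggshell gene follows which stages are in the sample. Transformer 2 is the splicing cofactor that directs the female form of doublesex, whose protein keeps yolk protein genes on, and warmth by itself acts on heat shock genes, on the pace of oogenesis and on the clock.

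The gene counts per library ran from 21950851 to 26938207. Of the 15 ovary markers looked for, 13 could be matched by symbol, and all 13 had reads in each of the 8 libraries. Germline osk lay between 555 and 2022 CPM (the gene's count relative to its library's total, scaled between libraries by TMM), germline orb between 158 and 577 CPM, and the follicle cell gene tj between 110.1 and 201 CPM. Reads that fell outside annotated genes were 1.35% and 2.47% in tra2ts and 2.48% and 1.10% in w1118 at 24 h, against 1.26% and 1.30% in tra2ts and 1.20% and 1.07% in w1118 at 12 h. Thus tra2ts replicate 2 and w1118 replicate 1 stood apart at 24 h. The mean share was 1.85% ± 0.728 at 24 h and 1.21% ± 0.101 at 12 h (SD, n = 4 each). These 2 libraries were named by this measure when the comparison was set, so the shares are a description. On the first principal component, which took 39.4% of the variance, tra2ts 24 h replicate 2 lay at 66.5, and the other 7 libraries lay between -27.4 and 19.4. For gene lists and named genes, values without these 2 libraries are given where they differ most.

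No gene passed at an adjusted p of 0.05 in edgeR's quasi-likelihood test of 24 h against 12 h: 0 of 8525 genes tested, or 0%. With no adjustment 217 genes (2.55%) had a p under 0.05, of which 161 (1.89%) were higher and 56 (0.657%) lower at 24 h, and the lowest adjusted p was 0.777. DESeq2 called 2 genes (0.0235%), dao lower and CG2961 higher. Within tra2ts alone edgeR called 0 genes, with 107 at an unadjusted p under 0.05 (1.26%), and DESeq2 called 5 (0.0587%). Within w1118 both tools called 0, with 66 (0.774%) at an unadjusted p under 0.05 by edgeR. The precision of the comparison bounds what may have been missed. Among the 6376 genes that averaged 10 CPM or more at either time, the 95% interval of the fold change lay inside 2-fold for 5292 (83%) and inside 1.5-fold for 3098 (48.6%). For the other genes the interval reached past 2-fold. The median log2 fold change of all genes was -0.01.

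**Figure D1:**
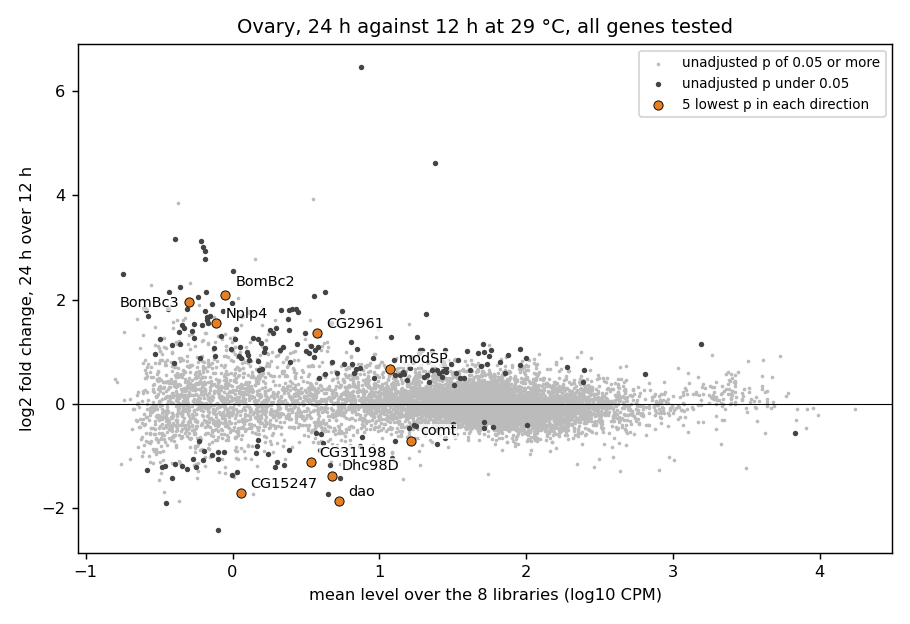
Each point is 1 of the 8525 genes tested in ovaries, by its mean level over the 8 libraries (log10 CPM) and its log2 fold change at 24 h over 12 h; dark points have an unadjusted p under 0.05 and orange points are the 5 lowest p in each direction. The wide values lie among low genes, and no gene had an adjusted p under 0.05 in edgeR.

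The gene with the lowest p was CG2961, which was the only gene that DESeq2 called higher. It stood at 4.11 and 7.55 CPM in tra2ts and 4.53 and 5.54 CPM in w1118 at 24 h, against 2.54 and 2.22 CPM in tra2ts and 1.98 and 1.72 CPM in w1118 at 12 h. Every library at 24 h was above every library at 12 h, and the 4 libraries at 0 h, between 1.46 and 2.15 CPM, were at the 12 h level or below. The fitted log2 change was 1.36 with a standard error of 0.26, an adjusted p of 0.777 in edgeR and of 0.0042 in DESeq2, and it was 1.20 without the 2 libraries that stood apart.

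Next in order on the higher side came BomBc2, modSP, BomBc3 and Nplp4, all with an adjusted p of 0.777 in edgeR. modSP is the secreted serine protease that acts at the head of the extracellular cascade to Toll. Its level was 14.2 and 10.9 CPM in tra2ts and 16.9 and 15.7 CPM in w1118 at 24 h, against 6.79 and 7.84 CPM in tra2ts and 11.1 and 10.6 CPM in w1118 at 12 h. Both 24 h libraries were above both 12 h libraries within each genotype, while tra2ts 24 h replicate 2 lay just under the higher w1118 library at 12 h. Its fitted log2 change was 0.68 ± 0.16 (SE), and it was 0.75 without the 2 libraries that stood apart.

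BomBc2 and BomBc3 belong to the Bomanins, short secreted peptides made in response to Toll in the immune response. BomBc2 was at 0.789 and 2.05 CPM in tra2ts and 2.05 and 0.903 CPM in w1118 at 24 h, against 0.278 and 0.312 CPM in tra2ts and 0.545 and 0.205 CPM in w1118 at 12 h. All 4 libraries at 24 h exceeded all 4 at 12 h. The fitted log2 change was 2.09 ± 0.49 (SE) over all 8 libraries and 1.33 without the 2 that stood apart. The 0 h libraries spanned 0.167 to 3.72 CPM and so covered both later times. Exons of BomBc2 and BomS4 overlap by 88 bases on opposite strands, and the strand setting of the counting was not given, so reads there cannot be assigned to either gene. BomBc3 had a log2 fold change of 1.97 ± 0.48 (SE) and Nplp4, a neuropeptide-like precursor, one of 1.55 ± 0.40 (SE), both from levels under 2 CPM in every library.

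On the lower side dao had the lowest p and was the only gene that DESeq2 called lower (adjusted p = 0.00261). It was at 4.77 and 1.87 CPM in tra2ts and 0.794 and 1.89 CPM in w1118 at 24 h, against 12.5 and 10.6 CPM in tra2ts and 4.43 and 5.90 CPM in w1118 at 12 h. Within each genotype the times did not overlap, and the one crossing was between tra2ts 24 h replicate 1 and w1118 12 h replicate 1. At 0 h the 4 libraries had 19.6 to 34.3 CPM, above every later library. The log2 fold change was -1.86 ± 0.37 (SE; adjusted p = 0.777 in edgeR) and -1.35 without the 2 libraries that stood apart, where DESeq2 again called it lower (adjusted p = 0.00155).

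comt encodes an N-ethylmaleimide-sensitive factor, an ATPase of vesicle fusion. It had 14.5 and 10.2 CPM in tra2ts and 10.6 and 14.5 CPM in w1118 at 24 h, against 21 and 20.9 CPM in tra2ts and 19.3 and 19.9 CPM in w1118 at 12 h. The highest 24 h library was below the lowest 12 h library, and the 0 h libraries held 47.9 to 51.4 CPM, above both. At 24 h over 12 h its log2 fold change was -0.70 ± 0.17 (SE; unadjusted p = 0.00319, adjusted p = 0.777 in edgeR). It was -0.48 without the 2 libraries that stood apart, both of which were the lower comt library of their genotype.

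CG15247 ran the same way as comt at lower levels, with 0.540 and 1.03 CPM in tra2ts and 0.374 and 0.287 CPM in w1118 at 24 h, against 1.79 and 1.4 CPM in tra2ts and 1.52 and 2.25 CPM in w1118 at 12 h. Its 0 h libraries had 5.01 to 9.26 CPM, so its levels at all 3 times did not overlap. CG31198 differed in its 0 h level: it had 1.83 and 2.24 CPM in tra2ts and 2.66 and 1.85 CPM in w1118 at 24 h, against 5.56 and 3.86 CPM in tra2ts and 4.12 and 5.08 CPM in w1118 at 12 h, and 1.26 to 1.72 CPM at 0 h. The 24 h libraries thus lay between the 0 h and the 12 h libraries. The log2 fold change at 24 h over 12 h was -1.71 ± 0.42 for CG15247 and -1.12 ± 0.25 for CG31198 (SE). Dhc98D, a dynein heavy chain gene, had -1.37 ± 0.31 (SE), and -0.74 once a trend on transcript length was taken out of each library.

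**Figure D2:**
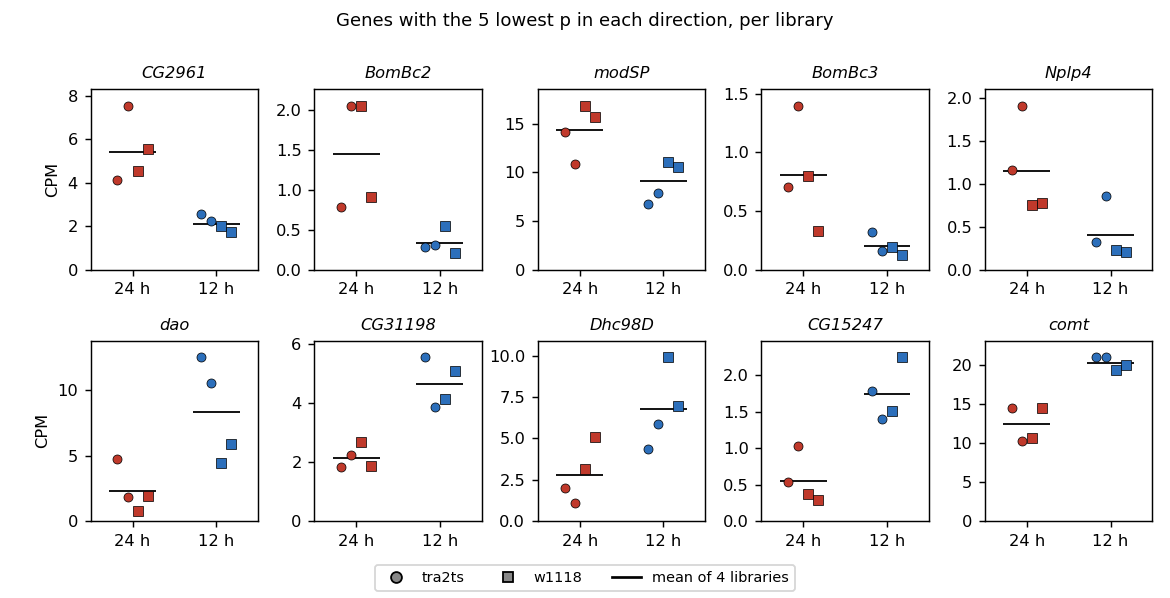
Level in CPM (linear axis from 0) of the 5 genes with the lowest p in each direction, with 1 point per library, circles for tra2ts, squares for w1118 and a bar at the mean of 4. The 24 h points of CG2961, BomBc2 and BomBc3 lie above, and those of CG31198, CG15247 and comt below, all 4 points at 12 h.

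Over all genes, 22 (0.258%) had all 4 libraries at 24 h above all 4 at 12 h, and 36 (0.422%) had all 4 below. Several of them are named here after their values were seen. Yp1, which encodes a yolk protein, was the most abundant of those lower at 24 h. It was at 5856 and 5872 CPM in tra2ts and 3993 and 6273 CPM in w1118 at 24 h, against 6739.9 and 9793 CPM in tra2ts and 7409 and 8309.5 CPM in w1118 at 12 h, a log2 fold change of -0.55 ± 0.21 (SE; unadjusted p = 0.028, adjusted p = 0.777 in edgeR). bib, a membrane channel protein of the neurogenic class, had a log2 fold change of -0.70 ± 0.25 (SE), and PH4alphaEFB, a prolyl hydroxylase that acts on collagen, had -0.41 ± 0.15 (SE). On the higher side Gel, the actin-severing protein gelsolin, was at 32.7 and 28.3 CPM in tra2ts and 39.1 and 26.3 CPM in w1118 at 24 h, against 22.1 and 19.8 CPM in tra2ts and 25.2 and 21.1 CPM in w1118 at 12 h. The fitted log2 change was 0.52 ± 0.16 (SE), with an adjusted p of 0.777 in edgeR. RagC-D, a GTPase that signals amino acid supply to TOR, met the same condition with a log2 fold change of only 0.08.

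At 24 h chorion genes had a median below the 12 h mean of their genotype in both tra2ts libraries. The median was above it in w1118 replicate 1, one of the libraries that stood apart. Of 15 chorion genes on the list 14 were tested, and their median log2 fold change at 24 h over 12 h was -0.66 in tra2ts and 0.94 in w1118, with -0.03 over both, beside 0.01, -0.02 and -0.01 over all genes. Against the 12 h mean of its genotype, the median was -0.75 and -0.68 in the tra2ts libraries. It was 1.32 in w1118 replicate 1 but 0.10 in w1118 replicate 2. The tra2ts libraries at 12 h lay at 0.46 and -0.46 around their own mean. Summed over the list, tra2ts was at 6645 and 9152 CPM at 24 h, against 15467 and 8133 CPM at 12 h, so the times overlapped. The difference between genotypes (tra2ts minus w1118) was below 0 in 14 of 14, with a median of -1.56, where 4081 of the 8525 genes were below 0 and the median of all genes was 0.02. No chorion gene was called by edgeR for this difference: 0 of 8525 genes passed (0%), 52 (0.61%) had an unadjusted p under 0.05, and DESeq2 called 3 genes (0.0352%), which were Mur11Da, CG31926 and CG13084.

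Mur11Da, a mucin-like gene placed on the chorion list, had the lowest p of the difference in edgeR. It was at 1.95 and 0.746 CPM in tra2ts and 33.9 and 11.8 CPM in w1118 at 24 h, against 23.1 and 10.8 CPM in tra2ts and 19.7 and 13.7 CPM in w1118 at 12 h. Both tra2ts libraries at 24 h were far below the other 6. The difference was -4.09 ± 0.93 on the log2 scale (SE; adjusted p = 1.00 in edgeR, 0.0144 in DESeq2). At 0 h the w1118 libraries had 11.4 and 11.1 CPM, and the tra2ts libraries 11.4 and 0.468 CPM, so a low tra2ts library also occurred before the shift.

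CG13084 and CG31926 had the same shape. CG13084 was at 17.2 and 16.6 CPM in tra2ts and 454 and 134 CPM in w1118 at 24 h, against 197 and 58.7 CPM in tra2ts and 141 and 138 CPM in w1118 at 12 h, a difference of -4 ± 0.96 (SE; adjusted p = 0.0189 in DESeq2). CG31926 had a difference of -4.75 ± 1.14 (SE; adjusted p = 0.0144 in DESeq2). For both, w1118 24 h replicate 1, one of the libraries that stood apart, was the highest of the 8.

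Among the named chorion proteins, Cp16 was at 38.6 and 86.1 CPM in tra2ts and 1253 and 159 CPM in w1118 at 24 h, against 326 and 189 CPM in tra2ts and 327 and 257 CPM in w1118 at 12 h. Cp19 was at 133 and 338 CPM in tra2ts and 4076 and 1106 CPM in w1118 at 24 h, against 866 and 587 CPM in tra2ts and 693 and 1296 CPM in w1118 at 12 h. The tra2ts libraries at 24 h were the lowest 2 of 8 for both genes, and w1118 24 h replicate 1 was the highest by a wide margin. Cp36 and Cp38, which are made earlier in choriogenesis than Cp16 and Cp19, spanned less. Cp36 was at 1546 and 2527 CPM in tra2ts and 10026 and 5201 CPM in w1118 at 24 h, against 3469 and 1808 CPM in tra2ts and 4022 and 3961 CPM in w1118 at 12 h.

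Without tra2ts 24 h replicate 2 and w1118 24 h replicate 1, DESeq2 called 7 genes in tra2ts, all lower at 24 h: Cp16, Cp19, Femcoat, Mur11Da, CG13083, CG31926 and CG18088. There the log2 fold change was -2.73 ± 0.32 for Cp16 and -2.44 ± 0.35 for Cp19 (SE; adjusted p = 3.31e-13 and 2.55e-08 in DESeq2), with a single tra2ts library at 24 h whose spread is assumed equal to that of the others. edgeR called 0 of 8749 genes on the same 6 libraries, with 135 at an unadjusted p under 0.05 in tra2ts. The difference between genotypes, in which DESeq2 then called 4 genes, CG31926 and Cp19 lower and Hsp67Bc and Cyp4g1 higher, was -2.58 ± 0.50 for Cp19 (SE; adjusted p = 0.00111). The chorion median over both genotypes was then -0.35. Late egg chambers were removed by hand, and in bulk tissue fewer late chambers and less RNA in each cannot be told apart. The number of egg chambers of each stage was not given in the sources used here.

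**Figure D3:**
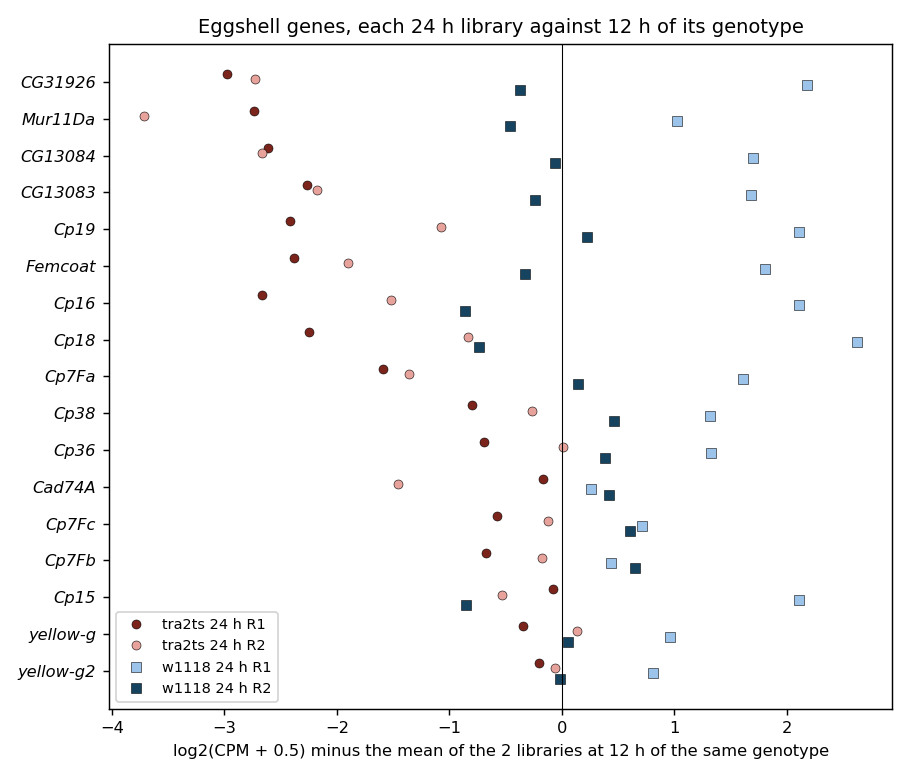
Log2 (CPM + 0.5) of each 24 h library minus the mean of the 2 libraries at 12 h of its genotype, for the 14 chorion genes tested and for CG31926, CG13084 and CG13083, ordered by the mean of the tra2ts values minus that of the w1118 values. Both tra2ts libraries lie left of w1118 24 h replicate 1 in each of the 14 chorion genes, and w1118 24 h replicate 2 lies between -0.86 and 0.65. CG31926, CG13084 and CG13083 were chosen by their values in these libraries, so they are not counted.

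Vitelline membrane genes are made by follicle cells before the chorion. Of 11 tested, 2 had a log2 fold change above 0 and 3 a difference between genotypes below 0; the median was -0.26, and it was -0.12 without the 2 libraries that stood apart. Vml, which also marks the vitelline layer for later embryonic patterning, was at 1717 and 1175 CPM in tra2ts and 620.2 and 2762 CPM in w1118 at 24 h, against 2084 and 2833 CPM in tra2ts and 2571 and 3262 CPM in w1118 at 12 h. The libraries that stood apart were the lower one of each genotype, and the log2 fold change was -0.78 ± 0.41 (SE), or -0.29 without them. Fcp3C had 0.43 ± 0.18 (SE), the only vitelline list gene at an unadjusted p under 0.05; it was 0.26 without the 2 libraries and 0.19 with the trend on transcript length taken out.

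The yolk proteins Yp1, Yp2 and Yp3, taken up by the oocyte and direct targets of doublesex, had log2 fold changes of -0.55, -0.46 and -0.33. Their standard errors were 0.21, 0.23 and 0.21. Yp2 was at 7836 and 8189 CPM in tra2ts and 4392 and 7017 CPM in w1118 at 24 h, against 8011 and 12668 CPM in tra2ts and 7498 and 9306 CPM in w1118 at 12 h. No difference between the genotypes was detected at this depth and spread: it (tra2ts minus w1118) was 0.12 ± 0.46 for Yp1, 0.19 ± 0.50 for Yp2 and 0.18 ± 0.45 for Yp3 (SE; unadjusted p = 0.803, 0.712 and 0.705 in edgeR). With standard errors of that size a 2-fold difference could be missed. At 0 h Yp1 was at 5945 and 9021 CPM in tra2ts and 3794 and 3170.4 CPM in w1118.

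The sex determination genes had small log2 fold changes. tra2 itself, whose ts alleles are point changes and so are not checked by a read count, was at 64.6 and 72.0 CPM in tra2ts and 83.3 and 67.3 CPM in w1118 at 24 h, against 58.1 and 67.1 CPM in tra2ts and 64.8 and 65.7 CPM in w1118 at 12 h. Its log2 fold change was 0.17 ± 0.13 (SE), that of tra, the partner of tra2 in splicing, 0.13 ± 0.16 (SE), and that of Sxl, the switch gene above tra, 0.07 ± 0.16 (SE), which was 0.63 with the trend on transcript length taken out. dsx, the splicing target, was at 4.86 and 3.68 CPM in tra2ts and 1.96 and 2.67 CPM in w1118 at 24 h, against 3.73 and 4.48 CPM in tra2ts and 3.73 and 4.02 CPM in w1118 at 12 h. Both w1118 libraries at 24 h were the lowest, and the difference between genotypes was 0.80 ± 0.49 (SE; unadjusted p = 0.147 in edgeR). Gene counts do not separate the female from the male splice form.

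Heat shock genes, the chaperones that answer to warmth, gave no common direction. Of 19 tested, 9 had a log2 fold change above 0 and none had an unadjusted p under 0.05; the median was -0.02 over both genotypes, 0.23 in tra2ts and -0.20 in w1118. The difference between genotypes was above 0 in 17 of 19, against 4444 of 8525 over all genes. This is not particular to heat shock genes. It was above 0 in 78 of 79 cytoplasmic and 72 of 72 mitochondrial ribosomal protein genes and in 32 of 32 proteasome genes. Other lists went the other way, with 4 of 30 cell cycle and replication genes and 0 of 14 chorion genes above 0. The heat shock median over both genotypes was 0.07 without the 2 libraries that stood apart. Hsp83, the fly Hsp90, was at 5465 and 4682 CPM in tra2ts and 3910.3 and 5088 CPM in w1118 at 24 h, against 4537 and 4706 CPM in tra2ts and 5387 and 5089 CPM in w1118 at 12 h. For Hsp83 the log2 fold change was -0.04, with a 95% interval of -0.44 to 0.36. Hsp27, a small heat shock protein of the ovary, had -0.22 ± 0.14 (SE).

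Of the inducible Hsp70 class, Hsp68 was at 48.1 and 9.23 CPM in tra2ts and 25.6 and 4.02 CPM in w1118 at 24 h, against 8.10 and 6.00 CPM in tra2ts and 85.3 and 15.1 CPM in w1118 at 12 h. Replicate 1 was the higher library in each of the 4 groups, and also at 0 h, where it was at 8.81 against 1.36 CPM in tra2ts and 6.83 against 1.53 CPM in w1118. The Hsp70 genes are near-identical copies whose reads the counting may have split, and 4 of 6 passed the filter on low counts. Over both genotypes their log2 fold changes lay between -0.49 and 0.09, but the median was 1.25 in tra2ts and -1.33 in w1118. The difference between genotypes was above 0 in 4 of 4 with a median of 2.57, against 4444 of 8525 over all genes. Such copies may share reads, so the 4 are not independent. Summed over the Hsp70 genes, tra2ts was at 6.52 and 1.399 CPM at 24 h, against 1.83 and 2.26 CPM at 12 h. In w1118 the sums were 3.97 and 1.97 CPM at 24 h, against 11.5 and 2.66 CPM at 12 h. The times thus overlapped in both genotypes. The highest library was replicate 1 at 24 h in tra2ts and replicate 1 at 12 h in w1118. Hsp70Aa, which was not tested, had at most 0.117 CPM in any of the 8 libraries.

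Genes of the unfolded protein response in the endoplasmic reticulum had a median of -0.20, with 3 of 15 above 0, and of -0.06 without the 2 libraries that stood apart. Hsc70-3, the chaperone BiP, was at 1250.2 and 738 CPM in tra2ts and 753 and 1277 CPM in w1118 at 24 h, against 1309 and 1239 CPM in tra2ts and 1541 and 1264 CPM in w1118 at 12 h. The 2 low libraries are again those that stood apart, and the log2 fold change was -0.41 ± 0.23 (SE) with them and -0.07 without them.

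Clock genes bear on the design, since 12 h and 24 h of warmth that began at one hour end at different hours of the day. The labels do not give clock times, so time of day and hours at 29 °C cannot be told apart. Of 17 tested, 2 were above 0 and none had an unadjusted p under 0.05. Clk, a transcriptional activator of the clock, was at 3.49 and 0.886 CPM in tra2ts and 1.21 and 1.31 CPM in w1118 at 24 h, against 2.94 and 3.35 CPM in tra2ts and 2.76 and 1.84 CPM in w1118 at 12 h, and had a log2 fold change of -0.69 ± 0.41 (SE). Its 3 lowest libraries were at 24 h, and tra2ts 24 h replicate 1 was the highest of all 8. The repressor genes gave -0.50 ± 0.40 for per and -0.15 ± 0.29 for tim, the output regulator vri gave -0.10 ± 0.48 and the photoreceptor cry -0.01 ± 0.23 (SE). At 0 h per was at 8.33 to 25.2 CPM, mostly above its later levels, which went from 2.05 to 5.46 CPM at 24 h and from 3.34 to 9.14 CPM at 12 h. The median of the clock list was -0.15, -0.02 without the 2 libraries that stood apart and 0.04 with the trend on transcript length taken out.

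Transcript length ordered the genes in those 2 libraries. Exonic length, taken from a later annotation, was known for 8134 of the 8525 genes tested (95.4%), and these were split by it into 5 groups of like size. The median log2 fold change at 24 h over 12 h was 0.26 in the shortest group (1145 bases and less) and -0.29 in the longest (4072 bases and more). Against the 12 h mean of its genotype, the median in tra2ts 24 h replicate 2 was 0.63 in the shortest group and -0.92 in the longest. In w1118 24 h replicate 1 it was 0.34 and -0.38. In tra2ts 24 h replicate 1 the same medians were -0.10 and 0.02, and in w1118 24 h replicate 2 they were -0.01 and 0.02. The 4 libraries at 12 h lay within 0.14 of 0 in each group. Each was part of the mean it was set against, so this distance is smaller than the one between replicates. Without the 2 libraries that stood apart the medians of the shortest and longest groups were -0.06 and 0.03.

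**Figure D4:**
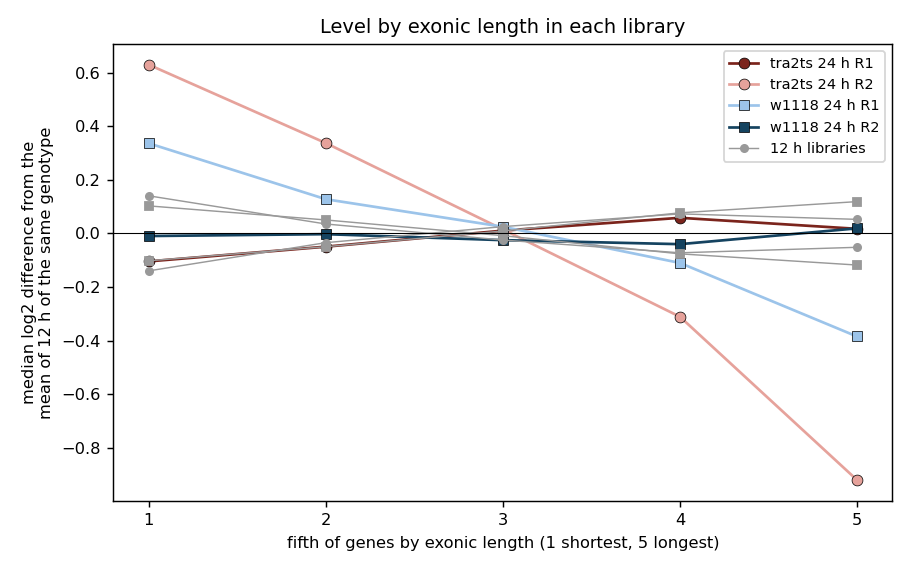
Median over genes of the log2 difference from the mean of the 2 libraries at 12 h of the same genotype, for 5 groups of genes by exonic length, with 1 line per library. The lines of tra2ts 24 h replicate 2 and w1118 24 h replicate 1 slope down from 0.63 to -0.92 and from 0.34 to -0.38. The other 6 stay within 0.14 of 0, but those at 12 h are part of the mean they are set against, which narrows them.

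The ribosomal protein and respiratory chain lists, of short genes, had values that followed the slope. The vitelline membrane and chorion lists, with median exonic lengths of 963 and 1157.5 bases, did not. Their median log2 fold changes were -0.26 and -0.03, and -0.34 and -0.06 with the length trend taken out. The 79 cytoplasmic ribosomal protein genes tested, whose median exonic length was 916 bases, had a median log2 fold change of 0.21 with 69 above 0. Over all genes 4151 of 8525 (48.7%) were above 0. Without the 2 libraries the median was -0.07 with 5 of 79 above 0, and with a smooth trend on length taken out of each library it was -0.03. The 72 mitochondrial ribosomal protein genes had 0.34 with 68 above 0, and -0.04 and 0.02 under the same 2 alternatives. The 69 nuclear genes of the respiratory chain had 0.18 with 61 above 0, and -0.03 and 0.02. The direction of the ribosomal protein and respiratory chain lists therefore turned without the 2 libraries.

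In single genes the same 2 libraries were high. RpL38, a protein of the large ribosomal subunit, was at 865 and 3429 CPM in tra2ts and 3399 and 941 CPM in w1118 at 24 h, against 709 and 1162 CPM in tra2ts and 845 and 1151 CPM in w1118 at 12 h. The 2 high libraries are tra2ts replicate 2 and w1118 replicate 1, and the log2 fold change was 1.16 ± 0.50 (SE) with them and -0.09 without them. mRpS21, of the mitochondrial ribosome, was at 32.2 and 129 CPM in tra2ts and 106 and 41.5 CPM in w1118 at 24 h, against 28.9 and 42.7 CPM in tra2ts and 33.6 and 45.4 CPM in w1118 at 12 h. The germline gene pgc, which silences transcription in pole cells, gave 198 and 471 CPM in tra2ts and 449.9 and 204 CPM in w1118 at 24 h, against 216 and 235 CPM in tra2ts and 195 and 192 CPM in w1118 at 12 h. For pgc the log2 fold change was 0.66 ± 0.31 (SE) with them and -0.05 without them, and 569 bases of its exons overlap T3dh on the other strand. The part of transcript length or RNA quality in any one gene was not tested.

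Lists of genes with long transcripts had medians below 0. Ecdysone genes, which act in the steroid signal that times egg chamber progress, had a median of -0.31 with 3 of 18 above 0, and of 0.06 without the 2 libraries. Hr3, an early-late nuclear receptor of that pathway, was at 19.5 and 5.27 CPM in tra2ts and 4.95 and 22.2 CPM in w1118 at 24 h, against 24.2 and 30.4 CPM in tra2ts and 20.8 and 22.3 CPM in w1118 at 12 h. For Hr3 the log2 fold change was -0.90 ± 0.50 (SE), and -0.21 without them; usp, the partner of the ecdysone receptor, had -0.34 ± 0.22 (SE) and -0.00. Exons of Hr3 overlap those of a neighbour on the same strand, so its count may hold reads of both.

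Follicle cell patterning genes had a median of -0.27 with 2 of 23 above 0, against 0.06 without the 2 libraries, and JAK/STAT genes, which set polar and border cell fates, -0.24 with 0 of 8 above 0, against 0.02. With the length trend taken out, the ecdysone, patterning and JAK/STAT medians were -0.06, -0.11 and -0.09. Their examples were dome, the JAK/STAT receptor, at -0.40 ± 0.29 and 0.05 without the libraries, and zfh1, a transcription factor of somatic cells, at -0.50 ± 0.31 and -0.04 (SE). Germline and maternal determinants had -0.19 with 5 of 25 above 0, and germline stem cell differentiation genes -0.22 with 3 of 17 above 0. Without the 2 libraries these were -0.03 with 8 of 25 and 0.02 with 10 of 17 above 0, and with the length trend taken out -0.11 and -0.01. mei-P26, which restrains growth in the dividing germline, was at 145 and 39.1 CPM in tra2ts and 53.8 and 117 CPM in w1118 at 24 h, against 168 and 167 CPM in tra2ts and 144 and 109 CPM in w1118 at 12 h. Its log2 fold change was -0.71 ± 0.40 (SE), and -0.15 without the 2 libraries.

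bam, the differentiation factor of germline cysts, was at 25.5 and 22.1 CPM in tra2ts and 12.4 and 14.7 CPM in w1118 at 24 h, against 38.8 and 26.2 CPM in tra2ts and 17.9 and 14.7 CPM in w1118 at 12 h. The libraries that stood apart were the lower one of each genotype at 24 h. For bam the log2 fold change was -0.36 ± 0.17 (SE; unadjusted p = 0.0708 in edgeR), and -0.24 without them. Exons of bam overlap those of CG11854 on the other strand by 224 bases.

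**Figure D5:**
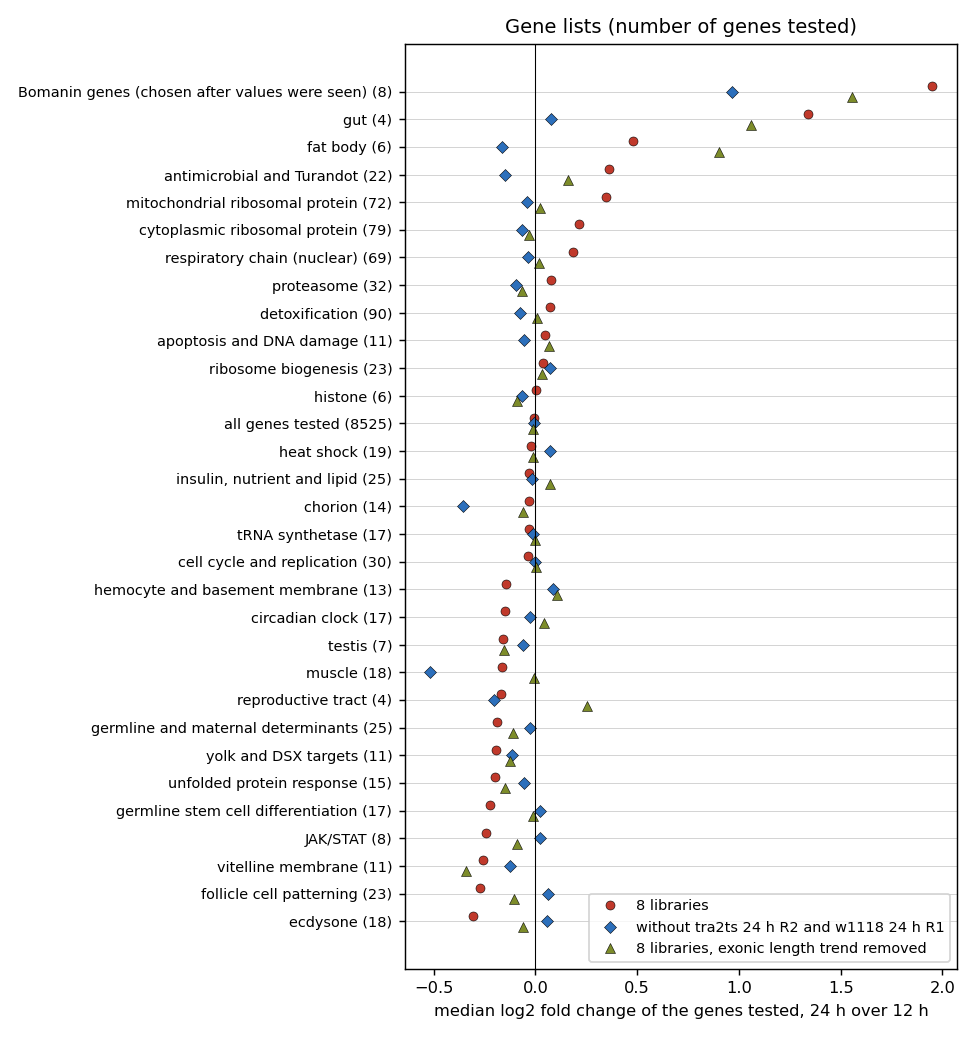
Median log2 fold change at 24 h over 12 h of the genes tested in each list, with the number of genes in brackets, over all 8 libraries (circles), without tra2ts 24 h replicate 2 and w1118 24 h replicate 1 (diamonds) and with a length trend removed from each library (triangles). Ribosomal and respiratory circles lie right of 0 and ecdysone, patterning and JAK/STAT circles left of 0, while their diamonds lie on the other side. The Bomanin genes lie right of 0 in all 3, but some passed the filter on low counts through their 24 h libraries.

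Immune genes, of which Bomanins held the lowest p values, were looked at next. Of 22 antimicrobial and Turandot genes tested, 16 were above 0 with a median of 0.36. On this list 4 were higher at an unadjusted p under 0.05 in edgeR, and 3 had all 24 h libraries above all 12 h libraries. Over all 8525 genes these were 161 (1.89%) and 22 (0.258%), and 48.7% were above 0. The 3 on the list are BomBc2, BomBc3 and BomS3. The list as a whole had a median of -0.15 without the 2 libraries that stood apart. Classical antimicrobial peptides went either way: the Diptericin genes DptA and DptB had log2 fold changes of -1.73 ± 1.12 and -1.33 ± 0.86, and Dro, the Drosocin gene, 0.35 ± 0.54 (SE).

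Because 2 Bomanins were among the 5 lowest p values on the higher side, the whole family was looked at after these values were seen. Its counts are a description. Of 12 Bomanin genes 8 were tested, 8 of 8 were above 0, and the median was 1.95. It was 0.96 without the 2 libraries and 1.55 with the length trend taken out. Levels at 12 h were near the floor, at most 0.318 CPM for BomBc3 and 0.278 CPM for BomS6. Such genes passed the filter on low counts through their 24 h libraries, so the count above 0 is partly set by the filter. BomS2 was at 0.872 and 1.87 CPM in tra2ts and 2.94 and 0.657 CPM in w1118 at 24 h, against 0.437 and 0.195 CPM in tra2ts and 0.817 and 0.205 CPM in w1118 at 12 h. Dso1, a Daisho peptide gene that also answers to Toll, was at 1.37 and 2.52 CPM in tra2ts and 2.29 and 0.903 CPM in w1118 at 24 h, against 0.635 and 0.312 CPM in tra2ts and 0.973 and 0.246 CPM in w1118 at 12 h. At 0 h Dso1 reached 6.01 CPM in w1118 replicate 2. The fat body is the main source of these peptides, and the fat body list is given next.

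Markers of other tissues that a dissection can carry were examined list by list. The fat body list had 6 of 13 genes tested, with 4 of 6 above 0 and a median of 0.48, or -0.16 without the 2 libraries that stood apart. Its summed level ranged over 23.3 to 107 CPM at 24 h and 58.9 to 76.0 CPM at 12 h, and Fbp2 was at 0 in all 8 libraries. Most of that sum was Cyp4g1, which is expressed in oenocytes (29.1 and 60.3 CPM in tra2ts and 74.2 and 4.11 CPM in w1118 at 24 h), except in w1118 24 h replicate 2. That library had the lowest sum, 23.3 CPM, where Cyp4g1 was low. The sum is therefore no measure of fat body alone. Obp99b, an odorant-binding protein on that list, was at 0.664 and 3.73 CPM in tra2ts and 4.20 and 6.90 CPM in w1118 at 24 h, against 0.635 and 0.390 CPM in tra2ts and 1.87 and 1.80 CPM in w1118 at 12 h. The fitted log2 change was 1.82 ± 0.50 (SE; unadjusted p = 0.0063 in edgeR), and 1.35 without the 2 libraries. Lsp1beta, a larval storage protein, had 1.81 ± 0.63 (SE) with them and 0.37 without them. The part of fat body RNA in the Bomanin values was not tested.

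The gut list had 4 of 20 genes tested, with 3 of 4 above 0 and a median of 1.34, or 0.08 without the 2 libraries; its summed level was 1.3 to 9.0 CPM at 24 h and 1.4 to 2.9 CPM at 12 h, gammaTry and Jon66Ci were at 0 in all 8 libraries, and w1118 24 h replicate 1 held the highest sum. Its amylase genes Amy-p and Amy-d are close copies whose reads cannot be told apart. Muscle genes, of the ovary sheath, had 5 of 18 above 0 with a median of -0.16, or -0.52 without the 2 libraries, and a summed level of 439.6 to 1413 CPM at 24 h and 438 to 1391 CPM at 12 h, with the highest library of each time in tra2ts replicate 2. Hemocyte and basement membrane genes had 5 of 13 above 0 with a median of -0.14, or 0.08 without the 2 libraries, and summed to 622 to 1526 CPM at 24 h and 1146 to 1342 CPM at 12 h; NimC1, a phagocytosis receptor of hemocytes, had a log2 fold change of 1.68 ± 0.58 (SE), or 0.69 without the 2 libraries. Reproductive tract genes had 1 of 4 above 0, with sums of 162 to 231 CPM at 24 h and 171 to 206 CPM at 12 h, and SP, Spn28F and Obp51a were at 0. Most of that sum was Sxl, which the ovary itself expresses, so it does not measure tract tissue. Of 27 testis genes 7 were tested and 12 were at 0 in all 8 libraries, dj, comr and tomb among them.

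The remaining lists lay near the median of all genes. Cell cycle and replication genes had 11 of 30 above 0 with a median of -0.04, and CycB, the mitotic cyclin B, had -0.30 ± 0.19 (SE), while Cdk1, its kinase partner, had 0.32 ± 0.21 (SE) and -0.07 without the 2 libraries. Proteasome genes had 23 of 32 above 0 with 0.07, detoxification genes 54 of 90 with 0.07, ribosome biogenesis genes 13 of 23 with 0.04, tRNA synthetase genes 6 of 17 with -0.03, apoptosis and DNA damage genes 7 of 11 with 0.05, and histone genes 3 of 6 with 0.00. Without the 2 libraries proteasome genes had 2 of 32 above 0 with -0.09, detoxification genes 34 of 90 with -0.08, apoptosis and DNA damage genes 3 of 11 with -0.06 and histone genes 1 of 6 with -0.06. Insulin, nutrient and lipid genes had 10 of 25 above 0 with -0.03. On that list tobi, a target of insulin and glucagon-like signals, was at 1.58 and 5.78 CPM in tra2ts and 5.70 and 1.48 CPM in w1118 at 24 h, against 1.51 and 1.01 CPM in tra2ts and 1.44 and 0.738 CPM in w1118 at 12 h. The log2 change of 1.62 ± 0.55 (SE) was 0.39 without the 2 libraries, and that of REPTOR-BP, a stress-response partner under TOR, went with it at 1.03 ± 0.42 and -0.01 (SE).

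Some genes were high in 1 library alone. With a level of at least 1 CPM and over 4 times every other library, there were 27 such genes in tra2ts 24 h replicate 2, 6 in w1118 24 h replicate 1, 4 in tra2ts 12 h replicate 2, 1 in tra2ts 12 h replicate 1 and 0 in the other 4. The mucin-like gene Mur18B was at 1.99 and 183 CPM in tra2ts and 2.24 and 0.575 CPM in w1118 at 24 h, against 0.715 and 0.507 CPM in tra2ts and 0.506 and 0.820 CPM in w1118 at 12 h. Uro, the urate oxidase of Malpighian tubules, was at 0.249 and 12.7 CPM in tra2ts at 24 h and at most 0.159 CPM in the other 6 libraries. At 0 h, tra2ts replicate 2 was also the high library, with 33.0 CPM of Mur18B and 2.76 CPM of Uro, where the other 3 had at most 0.525 and 0.157 CPM. DESeq2's higher calls in tra2ts, Mur18B and CG10514, both rest on the one library: without it and w1118 24 h replicate 1 their log2 fold changes over both genotypes were 0.89 and 0.68, against 4.62 and 3.94 with all 8.

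A last gene, named after its values were seen, was detected at 12 and 24 h in tra2ts alone. sif, a guanine nucleotide exchange factor of Rac signalling, was at 0.457 and 0.513 CPM in tra2ts at 24 h, against 3.02 and 2.38 CPM in tra2ts at 12 h, and 0 in all 4 w1118 libraries of both times. At 0 h it was at 0.783 and 0.983 CPM in tra2ts and 0.0416 and 0.143 CPM in w1118. Both tra2ts libraries at 24 h were below both at 12 h. Over both genotypes the log2 fold change was -2.41 ± 0.49 (SE; adjusted p = 0.777 in edgeR), and -1.17 with the length trend taken out.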

How the data were processed

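RNA from dissected ovaries was sequenced as single-end reads of 76 bases. The authors deposited 1 file per library with the read count of each of 15406 genes and 5 summary lines. Per the submitters' processing notes, reads were aligned with TopHat 1.4.1 to the dm3 build and counted with HTSeq; the HTSeq version, the gene annotation and the strand setting are not given in the sources used here. Symbols matched 14732 genes, and exonic lengths, gene overlaps and chromosome arms came from a later annotation (Ensembl release 115), so no coordinates are printed. Summary lines stayed out of library sizes and tests.

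From the deposited counts, genes were filtered with filterByExpr and scaled by TMM, and 24 h was tested against 12 h in edgeR 4.0.16 (with limma 3.58.1, R 4.3.3) by the quasi-likelihood test, two-sided, with genotype as a covariate and Benjamini-Hochberg adjustment over all 8525 genes tested. The threshold was 0.05. Within-genotype values and the difference between genotypes came from a fit with 1 mean per group. DESeq2 1.42.0, other scalings and filters, a replicate block, all 12 ovary libraries and leaving out libraries were alternatives. A length trend (splines with 5 degrees of freedom on log2 exonic length, as an offset per library) and DESeq2 without the 2 libraries that stand apart were added after seeing the data. Length groups and the eggshell plot used log2 (CPM + 0.5). The edgeR script was checked on counts simulated with a fixed dispersion and no libraries that stood apart. That check does not speak to the power of this comparison.

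Named genes were, by rule, the 5 lowest p in each direction where no gene was called and the 2 lowest p of each of the gene lists. The rule also took those of the sex determination, yolk, clock and heat shock genes fixed by name. For the difference between genotypes, where edgeR called none, it took the 5 lowest p. Others are said in the text to be chosen after their values were seen. So were the other genes that DESeq2 called, Femcoat, CG13083, Cp36, Dso1, Uro and Mur18B. The comparison, its members and the lists were chosen with earlier results of these data known. Libraries of a group are independent dissections per the labels, so p-values of the fit with 1 mean per group measure the spread between dissections. The test of 24 h against 12 h has no term for a difference between genotypes in the change. Its spread therefore also takes in such differences, as for Mur11Da, with -3.64 in tra2ts and 0.45 in w1118. Figures were drawn with matplotlib 3.10.9 in Python 3.11.15.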

Additional observations from a re-analysis of the deposited data

Results flagged for a closer look

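Some values of single libraries lay far from the other 3 of their time by Dixon's criterion, which chance meets in about 1 of 20 groups of values (5%); here 19 of 178 groups met it. Many of the genes were named because 1 library was extreme, so that count cannot be set against the chance rate. Of these, 11 were in tra2ts 24 h replicate 2. It was high for Mur18B (183 CPM), CG14292 (58.6 CPM), Obp99c (37.7 CPM), CG11892 (37.4 CPM), CG10514 (26.9 CPM), TpnC47D, a muscle troponin C (26.2 CPM), Cyp6g1, a detoxifying cytochrome P450 (15.7 CPM), Uro (12.7 CPM), mat (7.37 CPM) and the Bomanin BomT2 (2.98 CPM). The same library was low for the clock repressor tim, at 20.4 CPM. At 0 h, tra2ts replicate 2 was likewise the highest library for Mur18B, CG14292, CG10514, Uro and mat, at 33.0, 8.05, 3.93, 2.76 and 0.328 CPM.

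At 24 h w1118 replicate 1 was high for the chorion gene Cp16 (1253 CPM), for CG31926 (75.6 CPM) and for CG18088 (16.1 CPM), and tra2ts replicate 1 was high for Clk (3.49 CPM). At 12 h w1118 replicate 1 was high for Hsp68 (85.3 CPM), w1118 replicate 2 was low for the growth regulator Myc (79.6 CPM), tra2ts replicate 2 was high for the muscle gene bt (74.6 CPM), and tra2ts replicate 1 was high for the metalloprotease gene tok (6.35 CPM).

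Reads outside annotated genes, which no gene comparison uses, were 2.47% in tra2ts 24 h replicate 2 and 2.48% in w1118 24 h replicate 1, against at most 1.30% in the libraries at 12 h. Their part in these values was not tested.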

How the results depend on the processing

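edgeR called 0 genes under each scaling, filter, prior and set of all 12 libraries tried, and with the replicate block. At an unadjusted p under 0.05 the late response had 224 genes with RLE scaling, 210 with a robust prior, 306 of 8784 in all 12 libraries, 447 of 12303 with no filter, 126 of 8749 without the 2 libraries that stood apart and 286 of 8134 with the length trend removed, beside 217. DESeq2 called 2 genes in the late response, 5 in tra2ts, 0 in w1118 and 3 for the difference between genotypes. Without the 2 libraries, DESeq2 called 3 (dao and CG18088 lower, CG7381 higher), 7 in tra2ts, 1 in w1118 (Cyp4g1) and 4 for the difference. Leaving out 1 library at a time gave edgeR 0 to 1 calls in the late response (105 to 1421 at an unadjusted p under 0.05), 0 to 12 in tra2ts, and 0 in w1118 and for the difference. The calls came without tra2ts 24 h replicate 1, which leaves replicate 2 as the lone tra2ts library at 24 h, assumed to vary like the other groups: mat was then called in the late response, and 12 genes, all higher, in tra2ts. Without w1118 24 h replicate 2 there were 943 genes at an unadjusted p under 0.05, and none called. The difference in reads outside genes, 0.646 percentage points, ranged from 0.437 to 0.895 over the same exclusions, with 0.895 without w1118 24 h replicate 2, the 24 h library with the lowest share. The cause was not tested. The share of reads aligned uniquely is the same number by construction, since the other summary lines were empty in every library.

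With the replicate block the late response had 0 calls and 187 genes at an unadjusted p under 0.05 (lowest adjusted p = 0.7 in edgeR), and with the block and the length trend together 0 calls and 282 genes. Deviations of same-numbered libraries correlated at -0.515 between tra2ts and w1118 at 24 h and at 0.177 to 0.456 in the other 5 pairs of groups, and no label ties a number to a shared batch, so the libraries were not taken as paired.

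Of 29 list medians, 15 changed sign without the 2 libraries and 8 with the length trend removed, as did 16 and 9 of 93 named genes. With 2 libraries per group, and 2 of the 4 at 24 h apart from the rest, a 2-fold change was inside the 95% interval for genes at low levels most often: the interval lay inside 2-fold for 69.3% of all genes and for 83% of those at 10 CPM or more.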

Other observations

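Some further genes, chosen after their values were seen, had every library at 24 h below every library at 12 h. KCNQ, a voltage-gated potassium channel gene, was at 6.72 and 4.10 CPM in tra2ts and 5.00 and 8.05 CPM in w1118 at 24 h, against 8.34 and 9.05 CPM in tra2ts and 10.6 and 9.26 CPM in w1118 at 12 h. The fitted log2 change was -0.64 ± 0.23 (SE), with an adjusted p of 0.777 in edgeR. wun, a lipid phosphatase gene that guides germ cells in the embryo, was at 61.2 and 55.6 CPM in tra2ts and 45.6 and 56.5 CPM in w1118 at 24 h, against 62.0 and 68.2 CPM in tra2ts and 62.2 and 65.7 CPM in w1118 at 12 h. Its value was -0.24 ± 0.13 (SE). On the higher side Coq8, a gene of coenzyme Q synthesis, was at 31.2 and 43.6 CPM in tra2ts and 39.0 and 31.7 CPM in w1118 at 24 h, against 30.3 and 30.2 CPM in tra2ts and 24.3 and 28.8 CPM in w1118 at 12 h.

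CG7381, which DESeq2 called higher without the 2 libraries that stood apart, was at 28.9 and 13.7 CPM in tra2ts and 10.8 and 17.5 CPM in w1118 at 24 h, against 13.1 and 13.7 CPM in tra2ts and 10.7 and 8.44 CPM in w1118 at 12 h. At 0 h it was at 1.05 to 2.13 CPM, below every later library. Cyp4g1, the cytochrome P450 of oenocytes that makes cuticular hydrocarbons, was at 29.1 and 60.3 CPM in tra2ts and 74.2 and 4.11 CPM in w1118 at 24 h, against 45.4 and 51.7 CPM in tra2ts and 33.5 and 65.4 CPM in w1118 at 12 h. The call of Cyp4g1 in w1118 rests on w1118 24 h replicate 2 alone.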
